A study of Mus musculus with 6 samples.

Results

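The transcription factor p53, encoded by Trp53 in the mouse, and 9 of its target genes were followed in activated spleen cells labelled CD8+ T cells and cultured with or without sphingosine-1-phosphate (S1P), a bioactive lipid of blood and lymph. The 10 genes, Trp53, Mdm2, Cdkn1a, Ccng1, Gadd45a, Aen, Trp53inp1, Phlda3, Zmat3 and Sesn1, were taken by symbol from a table of 56941 genes. By the labels, naive CD8+ T cells purified from the spleens of B6 mice were stimulated in both groups through CD3 and CD28 in the presence of IL-2 and kept for 3 days, and 24 h into the culture either S1P at 5 µM or vehicle was added. The methods of the study name whole splenocytes as another starting material for such cultures, and transcripts of other cells were abundant, with Cd4 at 45.2 and the B cell gene Cd79a at 45.9 FPKM (a level per gene length) beside Cd8a at 61.0 FPKM in the mean of vehicle-treated samples. Each group holds 3 samples, which the labels call biological replicates without saying whether they came from separate mice, so p-values measure the spread between these samples. Depth per library lay between 13636095 and 17089831 counts with vehicle and between 12048880 and 17384084 counts with S1P.

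Protein p53 is held low in unstressed cells by MDM2, a ubiquitin ligase whose own gene p53 activates, and DNA damage or other stress frees p53 from MDM2. Because p53 is controlled mainly as a protein, the mRNAs of its targets are the usual readout of its activity. The targets fall into roles. Cdkn1a encodes p21, which blocks cyclin-dependent kinases, and Ccng1 and Gadd45a also act on the cell cycle, while Aen, Trp53inp1, Phlda3 and Zmat3 act in damage responses, cell death and survival. Sesn1 encodes a sestrin, which restrains the growth kinase mTORC1. In T cells, p21 limits the division that follows activation. Several of these genes also answer to other factors, among them FOXO factors for Cdkn1a and Gadd45a and ATF4 for Gadd45a.

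After S1P the 10 genes did not move together. Cdkn1a rose about 2.09-fold, Gadd45a rose 1.61-fold and Trp53inp1 rose 1.23-fold, whereas Zmat3 and Aen both fell, to 0.669 and 0.671 of the vehicle level. Trp53, Mdm2, Ccng1, Sesn1 and Phlda3 were not called. With edgeR's quasi-likelihood test over 13299 genes with enough counts, all 10 members among them, calls needed both an adjusted p up to 0.05 and a change of 0.3 or more on the log2 scale, in either direction. By this rule 12.7% of all tested genes were higher and 10.4% lower, 23.1% in all, and of the members 3 were higher and 2 lower. Trp53inp1 lost its call in 8 of 14 alternative settings of the processing, and Gadd45a in 1. In 8 members, 4 higher and 4 lower, every S1P-treated sample lay beyond every vehicle-treated one, as for 45.6% of all tested genes. The median log2 fold change was -0.03 over the members and 0.01 over all tested genes. Bulk RNA cannot tell fewer cells of a type from less RNA per cell. In all, the 10 genes took between 0.092% and 0.099% of the counts of each library.

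The sequence that p53 binds is a pair of 10-base repeats, each with a core of C, 2 bases that are A or T, and G. Windows of 3 kb on each side of the start of the canonical transcript were searched on GRCm39 for the p53 consensus response element, with no spacer, both cores intact and at most 2 mismatches. The element reads the same on both strands. Of 13260 tested genes with a start, 3.92% held such a match, and 0.867% held one with at most 1 mismatch. Of the members, Cdkn1a, Ccng1 and Zmat3 each held 1 match, shown here because the first rose after S1P, the second was not called and the third fell. They are written 5′ to 3′ on the strand of the gene, with the cores in capitals.
Cdkn1a: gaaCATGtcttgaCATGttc
Ccng1: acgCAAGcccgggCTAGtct
Zmat3: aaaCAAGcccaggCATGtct

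The Cdkn1a match, with 1 mismatch, lies 2826 bases upstream of the start at chr17:29309902-29309921, outside the gene. The Ccng1 match, also with 1 mismatch, lies 365 bases downstream of the start in an intron, at chr11:40645763-40645782. The Zmat3 match has 0 mismatches, which 0.173% of tested genes hold in such a window, and lies 1418 bases downstream of the start in an annotated exon at chr3:32418480-32418499. A match is a string of letters and not a measured binding site, and for the other 7 members this search says only that these letters are not in this window.

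Among the members, Ccng1 had by far the highest level per length. Levels were compared between genes as FPKM, which scale counts to library size and to the length of the merged exons. In vehicle-treated samples Ccng1 was at 76.4 ± 1.05 FPKM (SD, n = 3), followed by Trp53inp1 at 21.3 ± 0.70, Trp53 at 18.6 ± 0.90 and Mdm2 at 13.6 ± 0.12. Sesn1 at 7.06 ± 0.33, Cdkn1a at 6.46 ± 0.61, Aen at 6.09 ± 0.48 and Zmat3 at 5.62 ± 0.62 FPKM lay within their spread of each neighbour. Gadd45a at 2.48 ± 0.62 and Phlda3 at 2.08 ± 0.43 FPKM were lowest and overlapped. In S1P-treated samples Cdkn1a stood above Sesn1, at 13.5 ± 1.34 against 7.27 ± 0.14 FPKM (SD, n = 3 each). Trp53 and Mdm2, at 16.3 ± 0.23 and 16.2 ± 0.97 FPKM, lay within their spread after S1P, as did Aen, Gadd45a and Zmat3 at 4.10 ± 0.41, 4.03 ± 0.22 and 3.76 ± 0.28 FPKM.

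**Figure D1:**
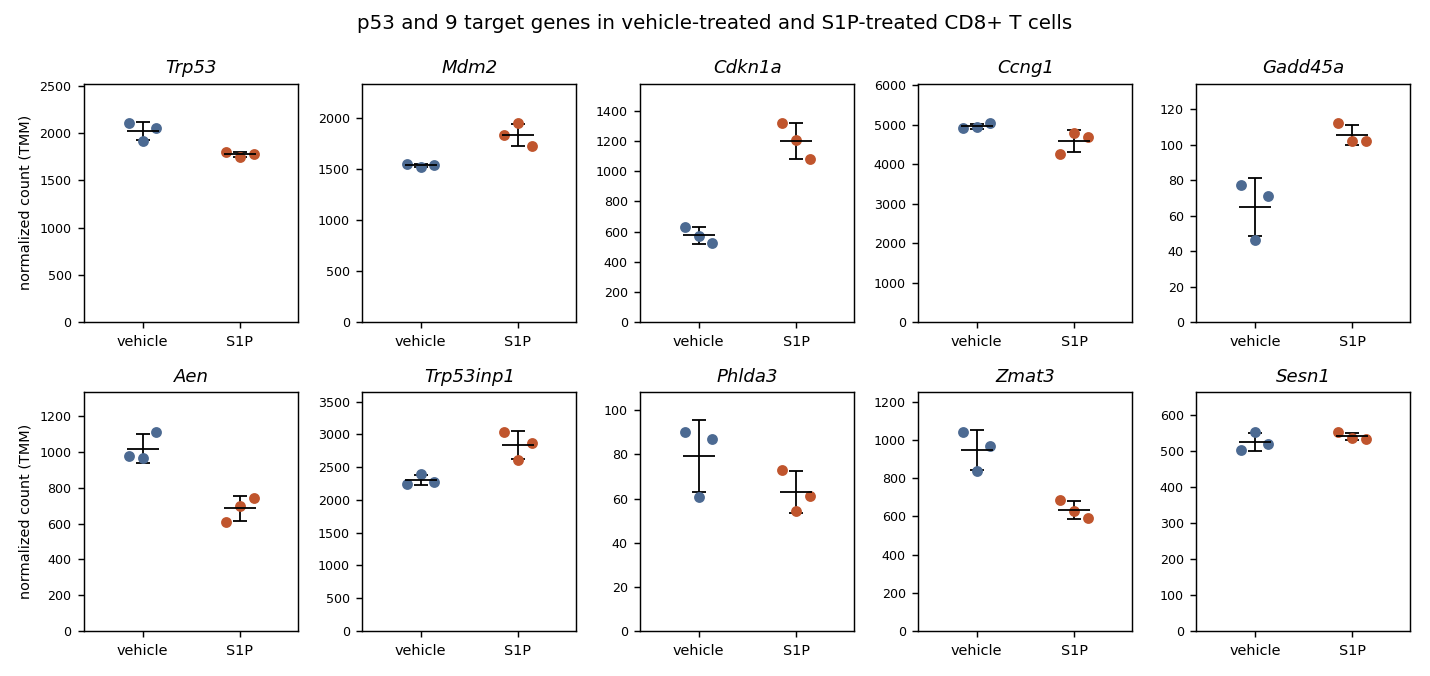
Normalized counts (y axis, from 0) of p53 and 9 of its targets in the 3 vehicle-treated (blue) and 3 S1P-treated (orange) samples, with the mean and SD in black. Cdkn1a, at a mean of 1202 after S1P against 576 with vehicle, shows the widest gap for its size, and the points of Sesn1 and Phlda3 overlap between groups.

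Trp53 itself (ENSMUSG00000059552, chromosome 11 from 69469669 to 69482701 of GRCm39) differed little. Its normalized counts, counts scaled to a common library size, were 2105, 1915 and 2052 in vehicle-treated replicates 1, 2 and 3, and 1799, 1750.2 and 1782 in S1P-treated replicates 1, 2 and 3. All 3 S1P-treated samples were below all vehicle-treated samples, as for 22.6% of tested genes. The log2 fold change was -0.19 (standard error, SE, 0.06, 95% interval -0.33 to -0.05, adjusted p = 0.0493 by edgeR), smaller than the threshold. Over 14 alternative settings its adjusted p ranged from 0.0257 to 0.191. Of the Trp53 exon bases 5.7% lie under genes of the opposite strand, Wrap53 among them, and Wrap53 fell by 0.43 on the log2 scale (adjusted p = 0.0339 by edgeR). Of the 31-base stretches of Trp53 transcripts, 5.44% also occur in other genes, with a processed pseudogene of Trp53 as the top partner.

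Mdm2 (ENSMUSG00000020184, chromosome 10 from 117524780 to 117546730) had normalized counts of 1553, 1527 and 1541 in vehicle-treated replicates 1, 2 and 3. In S1P-treated replicates 1, 2 and 3 it had 1833, 1951 and 1730.0. The S1P-treated samples were all higher, as for 23.0% of tested genes, and the log2 fold change of 0.25 (SE 0.07, 95% interval 0.11 to 0.40) passed the adjusted p (edgeR, 0.0153) below the size threshold. Without any 1 of the vehicle-treated samples it no longer passed, with edgeR adjusted p values from 0.0616 to 0.0665, nor did it without the filter on low counts (0.0746). Mdm4, which encodes a p53 inhibitor related to MDM2, had a log2 fold change of 0.05 (95% interval -0.10 to 0.21, adjusted p = 0.615 by edgeR).

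Cdkn1a (ENSMUSG00000023067, chromosome 17 from 29309936 to 29319701) changed most of the members in size. Its normalized counts were 633, 569.7 and 524 in vehicle-treated replicates 1, 2 and 3 and 1318, 1208 and 1079.7 in S1P-treated replicates 1, 2 and 3. The lowest S1P-treated sample was well above the highest vehicle-treated sample. Means were 576 ± 54.7 with vehicle and 1202 ± 119 after S1P (SD, n = 3 each), and the log2 fold change was 1.06 (SE 0.09, 95% interval 0.86 to 1.27, adjusted p = 3.65e-05 by edgeR). Among the 13299 tested genes 376 had a log2 fold change as high or higher. The call held in all 14 alternative settings, with log2 fold changes from 0.99 to 1.14. Other genes of the opposite strand cover 12.5% of its exon bases, and Dino, one of these genes, had between 1 and 4 raw counts in every sample.

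Ccng1 (ENSMUSG00000020326, chromosome 11 from 40639377 to 40646148), which encodes cyclin G1, was measured with the most counts. In vehicle-treated replicates 1, 2 and 3 its normalized counts were 4906, 4929.9 and 5034, against 4258, 4794 and 4696 in the S1P-treated samples. The groups did not overlap, but replicate 1 of the S1P-treated samples stood lower than the other two. The log2 fold change was -0.11 (SE 0.07, 95% interval -0.26 to 0.04, adjusted p = 0.239 by edgeR), and the interval leaves out changes as large as 0.3 in either direction. Across the settings tried its log2 fold change lay between -0.15 and -0.06 and was not called.

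Gadd45a (ENSMUSG00000036390, chromosome 6 from 67012070 to 67014441), a stress gene of the cell cycle arrest and MAP kinase pathways, rose from a low level. The normalized counts were 77.3, 46.5 and 71.1 in vehicle-treated replicates 1, 2 and 3, and 112, 102.2 and 101.8 in S1P-treated replicates 1, 2 and 3. All S1P-treated samples were above all vehicle-treated ones, among which replicate 2 was lowest. On the log2 scale the change was 0.69 (SE 0.19, 95% interval 0.28 to 1.10, adjusted p = 0.0178 by edgeR). Without vehicle-treated replicate 2 it was 0.50 and the call was lost (adjusted p = 0.0577 by edgeR). A gene of the opposite strand, E230016M11Rik, covers 55.8% of its exon bases and had between 0 and 10 raw counts, and the strand setting of the counting is not given in the sources used here.

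Aen (ENSMUSG00000030609, chromosome 7 from 78545602 to 78560957) encodes a nuclease that takes part in p53-dependent apoptosis. It fell from 980.6, 966.5 and 1112.5 normalized counts in vehicle-treated replicates 1, 2 and 3 to 611, 701 and 746 in S1P-treated replicates 1, 2 and 3. The groups lay apart, and on the log2 scale the difference was -0.58 (SE 0.09, 95% interval -0.77 to -0.38, adjusted p = 0.000941 by edgeR), and it was called in all 14 alternative settings. Of the 31-base stretches of its transcripts, 15.6% occur in other genes as well, and how the authors counted reads that match several places is not given in the sources used here.

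Zmat3 (ENSMUSG00000027663, chromosome 3 from 32388941 to 32420163), which encodes an RNA-binding protein of p53-dependent growth control, fell by nearly the same amount. It had 1042, 836 and 969 normalized counts in vehicle-treated replicates 1, 2 and 3 against 684, 626 and 591 in S1P-treated replicates 1, 2 and 3. Again no sample crossed over. The log2 fold change was -0.58 (SE 0.09, 95% interval -0.79 to -0.38, adjusted p = 0.00108 by edgeR), called in all 14 alternative settings. By log2 fold change Aen and Zmat3 stood at the 4.36 and 4.25 percentiles of tested genes.

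Trp53inp1 (ENSMUSG00000028211, chromosome 4 from 11156412 to 11175230), whose product promotes p53 activity and autophagy, rose by little more than the threshold. Its normalized counts were 2247, 2390.3 and 2278 in vehicle-treated and 3034, 2616 and 2873 in S1P-treated replicates 1, 2 and 3. The groups did not overlap, and replicate 2 of the S1P-treated samples was nearest to the vehicle-treated ones. Its log2 fold change of 0.30 (SE 0.07, 95% interval 0.15 to 0.46, adjusted p = 0.00916 by edgeR) fell short of the call in 8 of 14 alternative settings, with 0.25 as the smallest value, without S1P-treated replicate 1.

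Phlda3 (ENSMUSG00000041801, chromosome 1 from 135693809 to 135697686), which encodes an inhibitor of AKT, was the member with the fewest counts, between 42 and 106 raw counts per sample. Normalized counts were 90.1, 60.5 and 87.2 in vehicle-treated and 73, 54.3 and 61.3 in S1P-treated replicates 1, 2 and 3, and the groups overlapped. A log2 fold change of -0.33 with a SE of 0.20 gave a 95% interval from -0.76 to 0.11 (adjusted p = 0.241 by edgeR), so that no difference was detectable with these samples. Sesn1 (ENSMUSG00000038332, chromosome 10 from 41685931 to 41784423) had 504, 551 and 519 normalized counts in vehicle-treated and 552.4, 536 and 534 in S1P-treated replicates 1, 2 and 3. Here too the groups overlapped, with a log2 fold change of 0.04 (95% interval -0.12 to 0.21, adjusted p = 0.701 by edgeR). Of its exon bases, 10.9% lie under Cep57l1 on the opposite strand, which rose by 0.47 on the log2 scale (adjusted p = 0.0027 by edgeR).

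**Figure D2:**
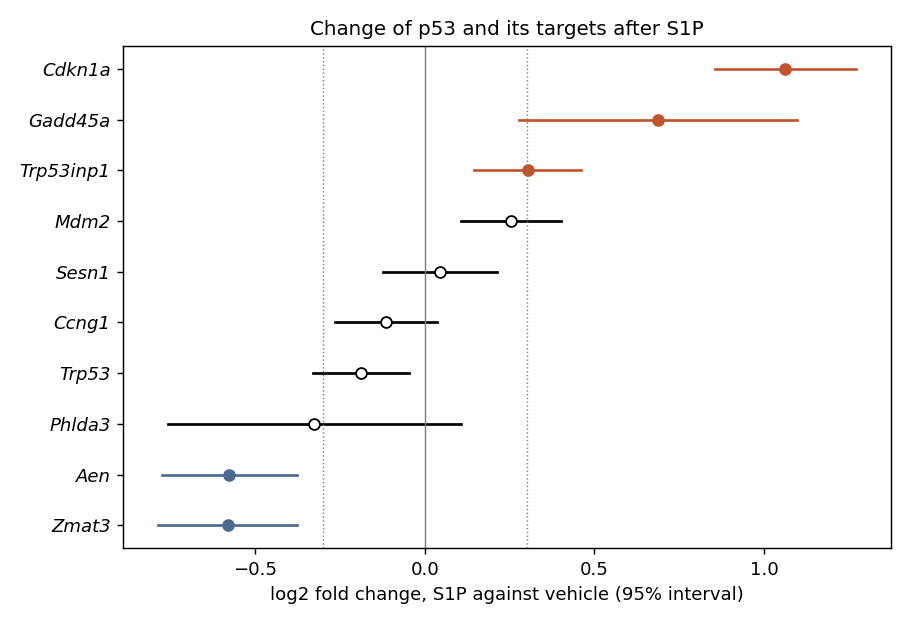
Log2 fold change of each member after S1P (x axis) with its 95% interval, ordered by size, with called genes filled (orange higher, blue lower), other genes open and the size threshold of 0.3 dotted. Cdkn1a at 1.06 lies opposite Aen and Zmat3 at -0.58, and the intervals of Sesn1, Ccng1 and Phlda3 cross 0.

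One of the 6 libraries, S1P-treated replicate 2, stood apart, with 7.80% of its counts on mitochondrially encoded genes against 4.10% to 4.93% in the other 5. Without it 3 members were higher and 2 lower, as with all libraries. Leaving out any one of the other 5 libraries, or using DESeq2, RLE factors, total counts or no filter, gave 2 higher and 2 lower, since Trp53inp1 or Gadd45a lost its call. The absence of S1P-treated replicate 2 moved the log2 fold change of Cdkn1a to 1.06, of Gadd45a to 0.71, of Trp53inp1 to 0.36, of Aen to -0.59 and of Zmat3 to -0.57, all called.

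Ratios of raw counts within a library do not depend on the scaling between libraries. For each count of Trp53, Cdkn1a had 0.301, 0.298 and 0.255 counts in vehicle-treated and 0.733, 0.690 and 0.606 counts in S1P-treated replicates 1, 2 and 3. The ratio of Cdkn1a to Zmat3, both of which hold a p53 element match, was 0.608, 0.682 and 0.541 in vehicle-treated and 1.93, 1.93 and 1.83 in S1P-treated replicates 1, 2 and 3. Cdkn1a was thus counted less often than Zmat3 in every vehicle-treated sample and more often in every S1P-treated one. The ratio of Cdkn1a to Mdm2 went from 0.374 ± 0.034 to 0.654 ± 0.056 (SD, n = 3 each). Of 10 such ratios, chosen after the values were seen, 8 did not overlap between groups. With 3 samples against 3 the two-sided exact permutation test can give no p below 0.1, the value of these 8, and 0.125 after adjustment over the 10 ratios.

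Genes of the same families as the members were compared next, since several share targets or functions with a member. Of 18 such genes 14 had enough counts to be tested, and 6 were higher and 1 lower after S1P. Over all tested genes 12.7% were higher and 10.4% lower. The median log2 fold change of the family genes was 0.26 against 0.01 over all tested genes. Trp63 and Trp73, the p53 relatives, and Cdkn1c and Phlda2 had too few counts.

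Cdkn1b, which encodes the Cip/Kip inhibitor p27, rose beside Cdkn1a. It had 796, 893 and 777 normalized counts in vehicle-treated and 1743, 1883 and 1761 in S1P-treated replicates 1, 2 and 3, a log2 fold change of 1.13 (SE 0.07, adjusted p = 1.1e-05 by edgeR). The ratio of Cdkn1b to Cdkn1a was 1.44 ± 0.16 with vehicle and 1.504 ± 0.16 after S1P (SD, n = 3 each, exact permutation test, two-sided, p = 0.6).

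Cyclin G2 and cyclin G1 differed. Ccng2 had 664, 768 and 386 normalized counts in vehicle-treated and 2381, 1797 and 2181 in S1P-treated replicates 1, 2 and 3, a log2 fold change of 1.81 (SE 0.19, 95% interval 1.39 to 2.23, adjusted p = 8.78e-05 by edgeR). Its lowest S1P-treated sample stood far above its highest vehicle-treated sample. The ratio of Ccng2 to Ccng1 was 0.135, 0.156 and 0.0766 with vehicle and 0.559, 0.375 and 0.465 after S1P. Those groups lay apart.

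In the sestrin family Sesn2, a target of ATF4 as well as of p53, rose, with normalized counts of 386, 318 and 312 in vehicle-treated and 579.7, 484 and 509 in S1P-treated replicates 1, 2 and 3. Its log2 fold change was 0.63 (SE 0.11, adjusted p = 0.00137 by edgeR), and the ratio of Sesn2 to Sesn1 went from 0.647 ± 0.10 to 0.969 ± 0.074 (SD, n = 3 each) without overlap. Sesn3, a FOXO target, had a log2 fold change of 0.20 (adjusted p = 0.0421 by edgeR), below the size threshold. Gadd45b rose beside Gadd45a, with a log2 fold change of 0.59 (SE 0.13, adjusted p = 0.00584 by edgeR), and Gadd45g had 0.32 (95% interval -0.01 to 0.66, adjusted p = 0.136 by edgeR).

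The remaining relatives are more distant. Isg20, an exonuclease gene induced by interferon, rose by 0.82 on the log2 scale (adjusted p = 0.0107 by edgeR), losing the call without vehicle-treated replicate 1 (0.74, adjusted p = 0.0511 by edgeR), and Isg20l2 fell by 0.33 on the log2 scale (adjusted p = 0.00363 by edgeR), to a change under the threshold without S1P-treated replicate 2 (-0.29). Zmat1 had a log2 fold change of 0.51 (adjusted p = 0.042 by edgeR) and lost its call in 7 of 14 alternative settings. Zmat2, Zmat5, Trp53inp2 and Phlda1 were not called, with log2 fold changes of 0.18, -0.46, 0.04 and -0.24. Zmat5 was called lower, at -0.78 on the log2 scale (adjusted p = 0.0252 by edgeR), when S1P-treated replicate 1 was left out, and without S1P-treated replicate 2 it was at -0.21 and not called.

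**Figure D3:**
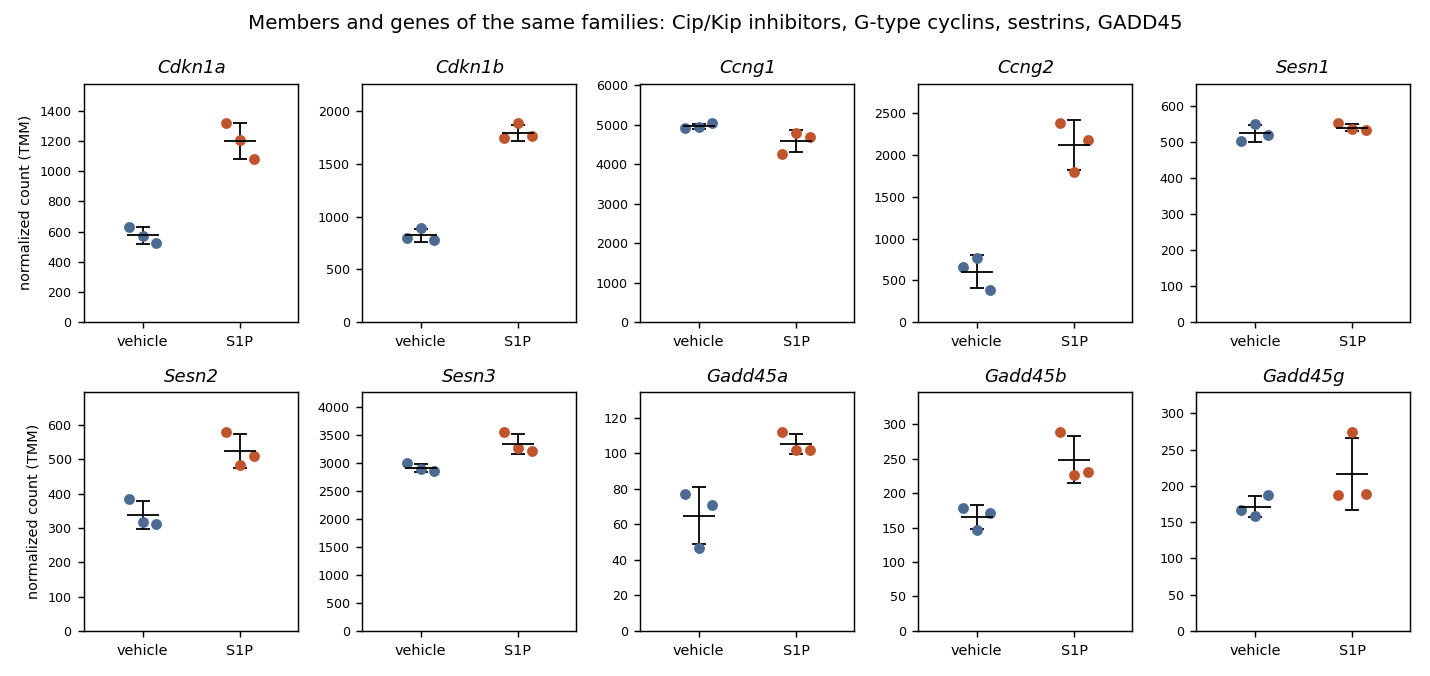
Normalized counts (y axis, from 0) of members and of genes of their families in the 3 vehicle-treated (blue) and 3 S1P-treated (orange) samples, with the mean and SD in black. Ccng2 and Cdkn1b rise to means of 2119.75 and 1796.01, while the Sesn1 points of the groups overlap.

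Upstream of p53, 17 of 18 regulators and damage kinases were tested, and 1 was higher and 2 lower, with a median log2 fold change of 0.05. Atr, the kinase that senses stalled replication, rose by 0.35 on the log2 scale (adjusted p = 0.0106 by edgeR). Its call was lost without vehicle-treated replicate 3, at 0.27 (adjusted p = 0.062 by edgeR). Without S1P-treated replicate 1 it was at 0.295 (adjusted p = 0.0253 by edgeR), below the size threshold. Usp10, a deubiquitinase that stabilizes p53, fell by 0.42 on the log2 scale (adjusted p = 0.000975 by edgeR) in every alternative setting, from 1756, 1662 and 1697 to 1238, 1224 and 1349 normalized counts in replicates 1, 2 and 3. The log2 fold change of Wrap53, named above, lost its call without vehicle-treated replicate 1 or 3 or without S1P-treated replicate 2. Atm, Chek1, Chek2, Usp7 and Ppm1d, a phosphatase gene that p53 itself activates, had log2 fold changes between 0.05 and 0.13 and were not called. Trp53bp1 was at -0.25 (adjusted p = 0.0169 by edgeR), below the size threshold, and Sirt1 at -0.16 (adjusted p = 0.0961 by edgeR). Groups did not overlap for 5 of the 17 tested genes of the list, 1 higher and 4 lower. Over all tested genes the shares were 23.0% higher and 22.6% lower, 45.6% in all. Cdkn2a, whose ARF product blocks MDM2, had too few counts.

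Of 15 apoptosis targets of p53 besides the members, 2 were higher and 1 lower, where 12.7% of all tested genes were higher and 10.4% lower. The median log2 fold change of these targets was -0.12. Pmaip1, which encodes NOXA, rose by 0.52 on the log2 scale (adjusted p = 0.00791 by edgeR) and the death receptor gene Fas by 0.50 (adjusted p = 0.00474 by edgeR). Trp53i11 fell by 0.59 on the log2 scale (adjusted p = 0.00182 by edgeR). Bax and Bbc3, which encode the killers BAX and PUMA, were not called, with log2 fold changes of -0.12 and 0.18 (adjusted p = 0.569 by edgeR and 0.603).

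Among 12 cell cycle and survival targets 10 were tested, with a median of -0.05. Of these, 2 were higher and 2 lower, against 12.7% and 10.4% of all tested genes. The higher genes were Ccng2 and Btg2, an antiproliferative gene at a log2 fold change of 0.56 (adjusted p = 0.000491 by edgeR). The lower genes were Ptp4a3, a phosphatase gene at -0.47 (adjusted p = 0.000994 by edgeR), and Ier5 at -0.36 (adjusted p = 0.0261 by edgeR), which lost its call when any of 4 libraries was left out. Of 10 DNA repair targets 2 were called, both higher, where 23.1% of all tested genes were called and 12.7% were higher. The median of the repair targets was 0.02. The called genes were Polk, which encodes a translesion polymerase, at a log2 fold change of 0.66 (adjusted p = 0.000123 by edgeR), and Rrm2b, a ribonucleotide reductase subunit, at 0.39 (adjusted p = 0.00539 by edgeR). Pcna, which encodes the replication clamp and had the most counts in the list, had a log2 fold change of -0.297 (adjusted p = 0.0148 by edgeR), just short of the size threshold. Under DESeq2, limma-voom, RLE factors, total counts, no filter, the replicate block, and without S1P-treated replicate 1 or 3, the list had 3 called genes, 2 higher and 1 lower. Ddb2 and Xpc, of nucleotide excision repair, had 0.12 and 0.08 and were not called.

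Metabolic and redox targets moved in both directions. Of 13 genes 11 were tested, with a median log2 fold change of 0.08. Among them 5 were higher and 3 lower, against 12.7% and 10.4% of all tested genes. Ddit4, which encodes the mTORC1 inhibitor REDD1 and also answers to hypoxia and ATF4, had 400, 634 and 346 normalized counts in vehicle-treated and 1296, 1221 and 1399 in S1P-treated replicates 1, 2 and 3 (log2 fold change 1.51, adjusted p = 0.000122 by edgeR). Gls2, a mitochondrial glutaminase gene, rose by 1.11 on the log2 scale (adjusted p = 0.00118 by edgeR) and Ephx1, an epoxide hydrolase gene, by 0.69 (adjusted p = 6.01e-05 by edgeR), beside Sesn2. Abcb1a rose by 0.46 on the log2 scale (adjusted p = 0.0371 by edgeR) and lost its call in 9 of 14 alternative settings. The lower genes were Rps27l at a log2 fold change of -0.40, Gpx1 at -0.71 and Dcxr at -1.17 (adjusted p = 0.0204 by edgeR, 0.038 and 0.0448), and each lost its call in 3 or more fits that left out 1 library. Dcxr had only 4 to 34 raw counts and was left out of the fit that needed at least 10 counts in every sample. Gpx1 had between 36 and 87 raw counts, and 85.3% of its exon bases lie under Gm57050 on the opposite strand, so the unknown strand setting of the counting bears on its value. Tigar and Fdxr, at -0.24 and -0.15, were not called. Without vehicle-treated replicate 3 the list had 4 called genes, all higher.

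Cell cycle genes that p21 represses through the DREAM complex were taken as the far end of the pathway. Of 35 such genes, all tested, 8 were called, where 23.1% of all tested genes were called. All 8 were lower, where 10.4% of all tested genes were lower, and the median log2 fold change of the list was -0.17. With upper-quartile factors, without S1P-treated replicate 1 and without S1P-treated replicate 2, 1 gene of the list was called higher, beside 7, 8 and 6 lower. At the adjusted p alone, which 28.5% of tested genes passed, 3 were higher and 15 lower. The higher ones were Mki67, Bub1 and Brca1, at log2 fold changes of 0.28, 0.27 and 0.22. The largest changes were those of Cdc20 and Ccnb1, both of mitosis. Cdc20 had 1723, 1606 and 1647 normalized counts in vehicle-treated and 1032, 720.5 and 912 in S1P-treated replicates 1, 2 and 3 (log2 fold change -0.90, adjusted p = 0.000193 by edgeR). Ccnb1, the gene of cyclin B1, had 2500, 2545 and 2495 against 1664, 1310 and 1536 (log2 fold change -0.74, adjusted p = 0.000135 by edgeR). Ccne1, of the entry into S phase, was at a log2 fold change of -0.44, the replication helicase genes Mcm2 and Mcm5 at -0.38 and -0.35, and Cdc25c at -0.36, all called, Cdc25c not without vehicle-treated replicate 2 or 3 or S1P-treated replicate 2.

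**Figure D4:**
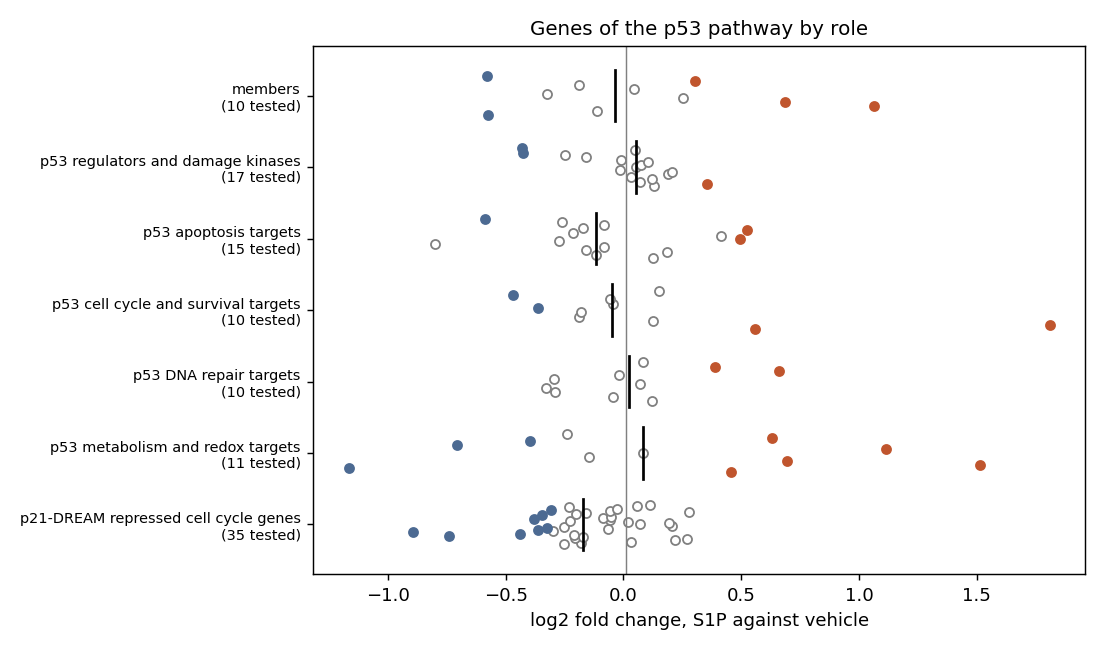
Log2 fold change after S1P (x axis) of every tested gene in 7 lists of the p53 pathway (rows), with called genes filled (orange higher, blue lower), other genes open, list medians as black bars and the median of all tested genes, 0.01, as a grey line. Called genes lie on both sides in most lists, and the 8 called DREAM genes are all lower.

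Markers of other cells were present beside the CD8 label. Cd4 was at 45.2 ± 4.08 FPKM with vehicle and 48.6 ± 7.02 after S1P, where Cd8a was at 61.0 ± 6.84 and 38.3 ± 1.81 (SD, n = 3 each). Cd8a and Cd8b1 fell by 0.67 and 0.55 on the log2 scale (adjusted p = 0.000243 by edgeR and 0.00767). The summed level of 8 B cell markers was 548 to 685 CPM with vehicle and 574 to 664 after S1P, with 1 higher and 2 lower, and that of 4 CD4 T cell markers was 229 to 272 and 252 to 319 CPM, with 2 called, both higher. Of 9 T cell and CD8 genes, at 2001 to 2124 CPM with vehicle and 1883 to 2074 after S1P, 1 was higher and 2 were lower. The 8 myeloid markers summed to at most 1.93 CPM in any sample, 1 of them, S100a8, at 0 counts. The 6 NK cell markers, of which CD8 T cells also express Eomes, summed to 64.3 to 69.6 CPM with vehicle and 33.8 to 46.0 after S1P. Eomes, which was called lower, carried nearly all of that sum, with 912 to 1076 raw counts with vehicle and 438 to 557 after S1P, where each of the other 5 markers had at most 16 in any sample. The part of these cells in the changes of the p53 targets was not tested.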

How the data were processed

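Poly(A) RNA of 6 samples, 3 for each of S1P and vehicle, was sequenced as strand-specific paired-end libraries. The authors used Trim Galore on the reads, STAR for alignment and featureCounts for counts per gene, and their processing notes name GRCm39. The deposited values are these raw counts, whole numbers without normalization. Versions, annotation release and strand setting are not given in the sources used here.

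Symbols, positions and exon lengths came from GENCODE vM39, which holds 56323 of the 56941 identifiers. Counts were filtered with filterByExpr, scaled with TMM factors and tested with edgeR 4.0.16 (limma 3.58.1, R 4.3.3) by quasi-likelihood, in a model with treatment alone, and p-values were adjusted by Benjamini-Hochberg across every tested gene. The standard error is the log2 fold change divided by the root of F. DESeq2 1.42.0, limma-voom, RLE, upper-quartile and no factors, 2 other filters, a replicate block, 2 other call rules and the fit without each library were alternatives. All models were first tested on simulated data. Named genes were all members, tested genes of their families, called genes of the other lists, and up to 6 called genes with the largest changes in the DREAM list. Genes named as not called, and markers, were chosen after their values were seen. The members and lists were chosen with earlier results of these data known.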

Additional observations from a re-analysis of the deposited data

How the results depend on the processing

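With the size threshold on the log2 scale raised from 0.3 to 1, 465 genes were called in all, with 1 member, 2 relatives, 1 cell cycle and survival target and 3 metabolic targets, and 0 regulators, apoptosis targets, DNA repair targets and DREAM genes by edgeR. The lists share genes, and Ccng2 is counted here both as a relative and as the cell cycle and survival target. Sesn2, Mdm4 and Chek1 are also each in 2 lists. With the adjusted p alone 18 DREAM genes passed. With DESeq2 5 metabolic targets were called. With each library left out in turn, all called genes numbered 2119 to 3228, members 4 to 5, regulators 1 to 3 and metabolic targets 4 to 7. Over these fits the log2 fold change of Zmat2 ranged from -0.10, without S1P-treated replicate 2, to 0.35, and that of Trp53inp2 from -0.10, without vehicle-treated replicate 2, to 0.16, with -0.04 and -0.01 without S1P-treated replicates 2 and 3. The cause was not tested. Of 699 fits of 50 named genes, 637 kept direction and side of the threshold. Deviations of same-numbered samples from their group means correlated at 0.12, -0.0060 and 0.048, and those of differently numbered samples at -0.10 to 0.05. With 3 samples in each group these values cannot tell whether the replicate numbers pair the samples. With the replicate number as a block, 3120 genes and 5 members were called. Among the members, Phlda3 and Gadd45a had the fewest counts and the largest standard errors.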
